A study of Rattus norvegicus with 35 samples.

Results

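The genes described here are 38 rat genes of the amino acid response: the transcription factor ATF4 (Atf4), the regulators and effectors that act with it, enzymes that make amino acids and one-carbon units, amino acid transporters, and cytosolic tRNA synthetases. They were chosen by name, and a gene was read by the probe set that the annotation of the array gives to that gene alone, the brightest by mean log2 intensity over the 35 arrays where there were several. By this rule 37 of the 38 genes were found among the 14217 genes with a probe set of their own, 25 of them with 1 probe set and 12 with several, and Pycr1 (a proline synthesis enzyme) had none. RNA was measured on Affymetrix rat genome arrays, which give 1 intensity per probe set, in neonatal rat ventricular myocytes (NRVMs). These are a myocyte-enriched fraction of primary heart cells of Sprague-Dawley rats taken at an age of 2 to 4 days, cultured on flexible plates that a pulsing vacuum stretched. In set I, myocytes stretched for 1, 4 or 12 h were compared with unstretched myocytes (4 groups, 20 arrays), and in set II, myocytes stretched for 24 or 48 h were compared with unstretched myocytes of their own (3 groups, 15 arrays). Every group held 5 biological replicates, the stretch of a culture was begun in steps and ended at one time, and the labels name no drug or genetic change in any group.

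When cells lack amino acids or their endoplasmic reticulum is under stress, kinases phosphorylate the initiation factor eIF2, general translation slows, and the mRNA of ATF4 is translated better. ATF4 pairs with C/EBP proteins on composite promoter elements and raises transcription of genes for amino acid uptake and synthesis and for charging tRNA, and it also raises its own brakes, among them Trib3, Ddit3 (CHOP) and Ppp1r15a (GADD34). In heart muscle the same genes accompany growth as well as mitochondrial and nutrient stress, and since ATF4 protein is set largely by translation, its mRNA level is only part of its regulation.

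Of 8 cardiomyocyte markers 7 (all but Actc1) had a probe set of their own, and their intensities summed to 97303 to 100486 after 1 h, 96548 to 101148 after 4 h and 94687 to 97856 after 12 h, against 99050 to 103986 in unstretched myocytes of set I. In set II they summed to 86712 to 95354 after 24 h and 84986 to 89860 after 48 h, against 91911 to 95001 in unstretched myocytes. At 1, 4, 12, 24 and 48 h, 2, 2, 3, 3 and 3 of these 7 markers were lower. Of the 7, 1 was higher at 24 h and 1 at 48 h. Markers of other cells were present and also moved with stretch. Of 9 fibroblast markers 2, 6, 6, 1 and 6 were lower at 1, 4, 12, 24 and 48 h. Of 6 endothelial markers (Cdh5 had no probe set of its own) 0, 4, 4, 2 and 5 were lower, and of 7 macrophage markers 0, 0, 1, 2 and 5. Of the fibroblast markers 1 was higher at 24 h. Of 6 smooth muscle and pericyte markers 1 was higher at each time, by up to 2.89 on the log2 scale at 48 h, and 1, 2, 2, 1 and 2 were lower. Beside these counts, 8.24%, 17.1%, 19.4%, 13.5% and 22.5% of all genes were higher and 8.3%, 19.2%, 19.7%, 10.1% and 18.4% lower. At 48 h the fibroblast markers summed to 63681 to 71510, against 75446 to 78632 without stretch. The endothelial markers summed to 1799 to 1973, against 2614 to 3454, and the macrophage markers to 1236 to 1351, against 1761 to 1932. The smooth muscle and pericyte markers summed to 1614 to 2342, against 1466 to 1834. The part of these cells in the results below was not tested, and in such bulk RNA fewer cells of a type and less RNA per cell cannot be told apart. The sets differ in level and appear to have been normalized apart, so all comparisons stay within a set.

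To show what the promoters of these genes share, the 300 bases around each start site in RefSeq (build GRCr8, 250 before it and 50 after it) were searched on both strands for TGATGNAA, the core of the composite C/EBP-ATF element through which ATF4 acts (TTNCATCA when read on the other strand). Windows were matched for 34 of the 37 genes, and 12 of the 34 held the core, against 3.98% of all 33469 rat windows (1332). The genes were chosen by name as genes of the response that ATF4 drives, so an excess was likely from the start and is no test. A core outside the window would be missed. The form with a cytosine, TGATGCAA, lay in 10 of the 34 genes and in 0.795% of all windows (266). The core was present in 6 of the 10 synthetase genes with a window (Aars1, Iars1, Mars1, Nars1, Tars1 and Yars1), and in Slc7a1, Slc1a4, Slc38a1, Chac1, Trib3 and Fgf21, and in Yars1 it lay after the start site. Stretches of 8 of these promoters follow, 5′ to 3′ on the strand of the gene and ending before its start site, with the core in capitals. They belong to synthetases, transporters, an effector and a regulator whose values are given below. Nars1, Slc38a1 and Fgf21 also held the core before the start site and are not printed.
Tars1: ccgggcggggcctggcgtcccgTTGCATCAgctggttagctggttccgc
Iars1: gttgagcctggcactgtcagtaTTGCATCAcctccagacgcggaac
Mars1: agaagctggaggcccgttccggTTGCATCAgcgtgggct
Aars1: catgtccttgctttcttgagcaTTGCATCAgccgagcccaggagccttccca
Slc7a1: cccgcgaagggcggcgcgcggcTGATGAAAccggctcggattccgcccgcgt
Slc1a4: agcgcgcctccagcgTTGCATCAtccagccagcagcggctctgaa
Chac1: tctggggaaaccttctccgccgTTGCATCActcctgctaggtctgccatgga
Trib3: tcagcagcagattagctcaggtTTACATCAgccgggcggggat

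The core began 27 bases before the start site in Tars1 (chr2:62114803-62114851, minus strand), 24 in Iars1 (chr17:15193653-15193698, minus), 17 in Mars1 (chr7:65023754-65023792, minus), 30 in Slc7a1 (chr12:11664436-11664487, plus) and 21 in Trib3 (chr3:161275534-161275576, minus). It began farther off in the others, 112 bases before the start in Aars1 (chr19:55908348-55908399, plus), 167 in Chac1 (chr3:126795942-126795993, plus) and 235 in Slc1a4 (chr14:98761768-98761812, minus). Of those shown, Slc7a1 and Trib3 do not hold the cytosine form and the others do, read on the strand that carries the core. The match is a description of letters and not of binding. Genes with and without it did not keep one order over time. At 4 h the median log2 fold change was 0.46 over the 12 genes with the core and 0.32 over the 22 without it, at 1 h both were 0.18, at 12 h they were 0.16 and 0.31, at 24 h 0.25 and 0.41, and at 48 h 0.34 and 0.35.

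Most of the genes were higher in stretched myocytes at every time (figure of shares by time). At 1 h 22 of 37 (59.5%) had a higher level at an adjusted p under 0.05 (limma, Benjamini-Hochberg over 31042 probe sets), against 8.24% of all 14217 genes. At 4 h 30 (81.1%) were higher, against 17.1% of all genes, and at 12 h 29 (78.4%) against 19.4%. In set II 30 (81.1%) were higher after 24 h, against 13.5%, and after 48 h 26 (70.3%), against 22.5%. Lower levels were found for 1 gene at 1 h and 1 gene at 4 h and for none at 12, 24 and 48 h, while 8.3%, 19.2%, 19.7%, 10.1% and 18.4% of all genes were lower at the 5 times. The probe sets of the 37 genes are bright (36 lie above the median gene), and bright probe sets passed the test more often. Among the 7108 genes above the median 12.3%, 25.4%, 28.2%, 19.5% and 30.3% were higher. These 7108 genes are not matched in brightness to the 37, whose median percentile is 84.4. The part of brightness in the shares was not tested. All these shares describe the 37 genes beside the array, and the 37 were chosen with earlier results of these data known.

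**Figure D1:**
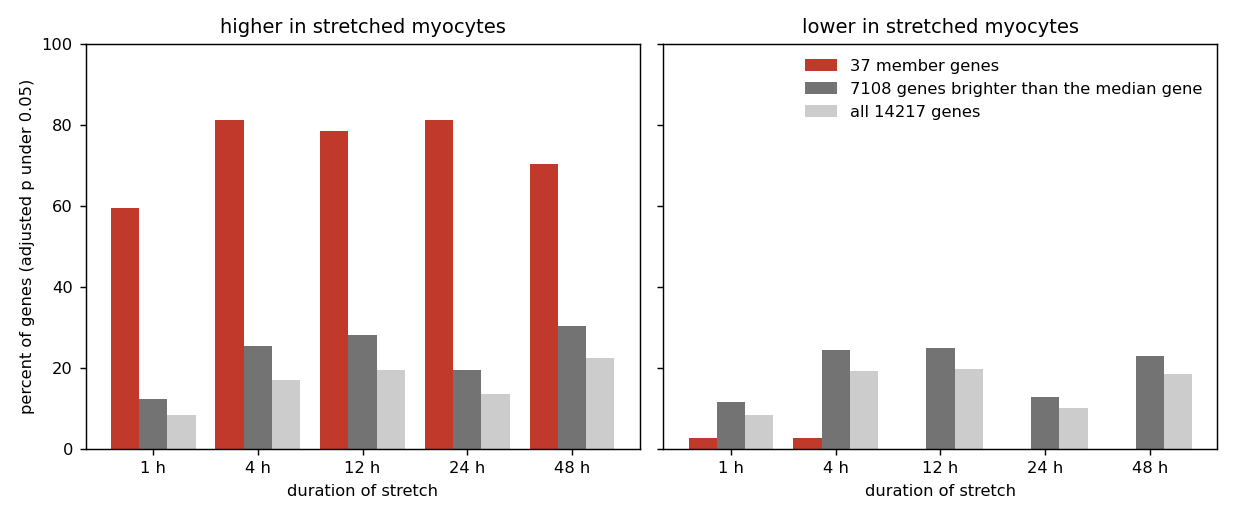
Percent of genes with a higher (left) or lower (right) level in stretched myocytes at an adjusted p under 0.05 (vertical axis) at each duration of stretch (horizontal axis), for the 37 genes, for the 7108 genes brighter than the median gene and for all 14217 genes. Between 59.5% and 81.1% of the 37 genes were higher, and at most 2.7% were lower.

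The changes were modest in size. The median log2 fold change of the 37 genes was 0.19, 0.35, 0.23, 0.31 and 0.38 at 1, 4, 12, 24 and 48 h, where that of all genes lay between -0.004 and 0.044. A rise of at least 1.5-fold was reached by 1, 8, 5, 5 and 8 of the 37 at the 5 times, against 0.999%, 1.76%, 1.7%, 1.71% and 3.83% of all genes. In each of the 25 stretched arrays, between 29 and 37 of the 37 genes lay above the mean of their controls, while 43.8% to 60.3% of all genes did. Across time 20 genes were higher at all 5 times, 4 at 4 times and 10 at 1 to 3 times, and 3 (Atf5, Slc38a2 and Fgf21) passed the test at none. The times of a set share their controls, so calls at several times are not independent. How many of all genes were called at several times was not counted.

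**Figure D2:**
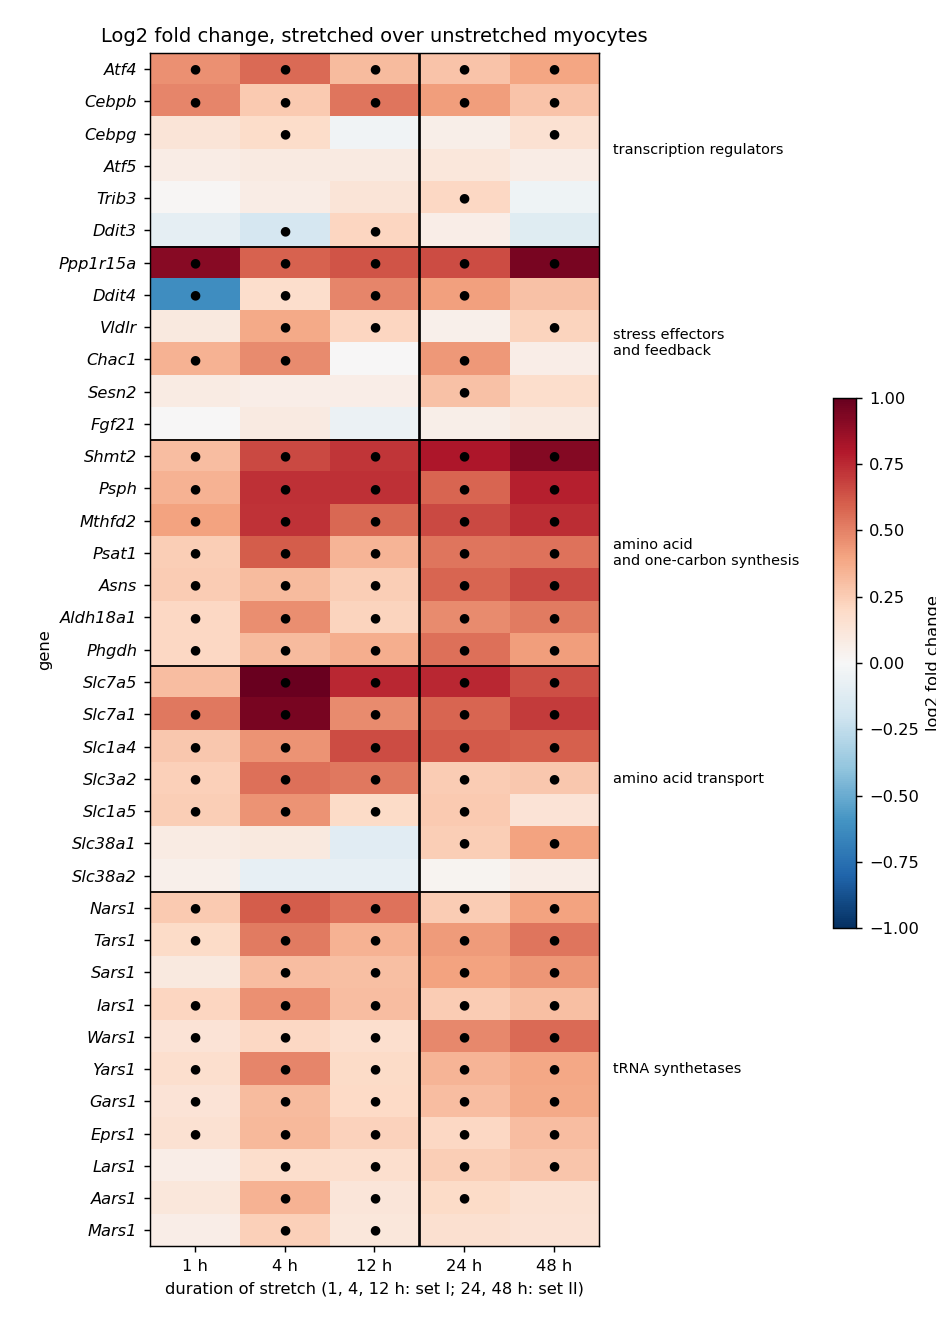
Log2 fold change of each of the 37 genes (rows, grouped by role) after each duration of stretch (columns, 1, 4 and 12 h against the controls of set I and 24 and 48 h against those of set II). A dot marks an adjusted p under 0.05, and the colour scale runs between -1 and 1. The 7 synthesis enzymes carry a dot at all 5 times, and Ddit4 at 1 h is the only strongly lower cell, at -0.62.

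Atf4 itself, the activator after which the response is named, was higher at all 5 times. In set I its log2 intensity was 12.29, 12.32, 12.30, 12.28 and 12.35 after 1 h, 12.31, 12.46, 12.47, 12.43 and 12.44 after 4 h and 12.17, 12.19, 12.15, 12.21 and 12.13 after 12 h, against 11.85, 11.82, 11.80, 11.77 and 12.03 in unstretched myocytes. All 15 stretched arrays lay above the 5 unstretched ones, of which replicate 5 stood highest. The rise was largest at 4 h (1.48-fold, log2 fold change 0.57, SE 0.0462, adjusted p = 1.06e-08) and was 0.45 after 1 h (adjusted p = 5.38e-07) and 0.32 after 12 h (adjusted p = 1.68e-05) on the log2 scale. In set II its log2 intensity was 12.56, 12.45, 12.52, 12.43 and 12.46 after 24 h and 12.57, 12.77, 12.58, 12.37 and 12.66 after 48 h, against 12.11, 12.08, 12.31, 12.08 and 12.42 in unstretched myocytes. Here the controls spread more, replicates 3 and 5 lay above the others, and 1 of the stretched arrays at 48 h fell among them. The log2 fold changes were 0.29 after 24 h (adjusted p = 0.0183) and 0.39 after 48 h (adjusted p = 0.00101). Without replicate 1 or replicate 2 of the controls, the rise at 24 h no longer passed the test (log2 fold change 0.26 in both cases).

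Cebpb, a C/EBP factor that forms dimers with ATF4, was also higher at all times, with a different course. Its log2 intensity in set I was 10.89, 10.88, 10.97, 10.99 and 11.11 after 1 h, 10.62, 10.99, 10.69, 10.76 and 10.64 after 4 h and 11.01, 11.03, 11.15, 11.02 and 10.87 after 12 h, against 10.51, 10.47, 10.44, 10.53 and 10.44 in unstretched myocytes. It stood high at 1 h, lower at 4 h and high again at 12 h, and none of these groups overlapped the controls. The log2 fold changes were 0.49 after 1 h (adjusted p = 2.14e-05), 0.26 after 4 h (adjusted p = 0.00421) and 0.54 after 12 h (adjusted p = 1.71e-06). The set II arrays read 10.87, 11.01, 10.98, 11.09 and 10.99 after 24 h and 10.78, 10.79, 11, 10.77 and 10.93 after 48 h, against 10.49, 10.72, 10.38, 10.86 and 10.40 in unstretched myocytes, with control replicates 2 and 4 well above the other controls. Its log2 fold changes were 0.42 after 24 h (adjusted p = 0.00289) and 0.29 after 48 h (adjusted p = 0.0178), and after 48 h the call was lost without control replicate 3 or stretched replicate 3 (0.24 and 0.25). Cebpg, a shorter C/EBP partner of ATF4, reached 0.19 after 4 h (adjusted p = 0.00162) and 0.15 after 48 h (adjusted p = 0.0415), a call lost when any 1 of 8 arrays was left out (0.13 to 0.16), and no call at the other times, while a dimmer probe set of it gave 0.37 at 4 h and 0.35 at 12 h, both past the test. Atf5, the closest relative of ATF4, stayed between 0.07 and 0.11 with no call at any time.

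Ddit3 and Trib3, both common markers of the ATF4 response, kept another course than Atf4. Ddit3, which encodes CHOP, a C/EBP relative linked to cell death under prolonged stress, read 8.61, 8.65, 8.55, 8.62 and 8.70 after 1 h, 8.58, 8.58, 8.54, 8.49 and 8.54 after 4 h and 9.04, 8.93, 8.97, 8.82 and 8.89 after 12 h, against 8.68, 8.88, 8.67, 8.64 and 8.71 in unstretched myocytes. All 5 arrays at 4 h lay below the controls, whereas those at 12 h overlapped them and were mostly above. The log2 fold changes were -0.09 after 1 h (adjusted p = 0.294), -0.17 after 4 h (adjusted p = 0.0131) and 0.22 after 12 h (adjusted p = 0.0018), so that it was lower at 4 h, when Atf4 was highest, and higher at 12 h. In set II Ddit3 read 9.67, 9.81, 9.86, 9.86 and 9.83 after 24 h and 9.58, 9.65, 9.73, 9.52 and 9.65 after 48 h, against 9.71, 9.74, 9.72, 9.85 and 9.72 in unstretched myocytes, with overlapping groups and no call, the log2 fold change being 0.06 after 24 h (adjusted p = 0.478) and -0.12 after 48 h (adjusted p = 0.108). Trib3, a pseudokinase that restrains ATF4 and Akt, read 7.81, 7.82, 7.73, 7.93 and 8 after 1 h, 7.83, 7.96, 7.88, 7.89 and 8.06 after 4 h and 8.01, 8.01, 7.95, 8.09 and 7.83 after 12 h, against 7.88, 7.95, 7.80, 7.63 and 7.99 in unstretched myocytes. These groups overlapped throughout set I, and no difference passed the test (0.01, 0.07 and 0.13). The arrays of set II stood at 8.43, 8.47, 8.55, 8.63 and 8.46 after 24 h and 8.33, 8.37, 8.20, 8.23 and 8.17 after 48 h, against 8.37, 8.37, 8.22, 8.29 and 8.27 in unstretched myocytes. Every array at 24 h was above every control, with a log2 fold change of 0.21 (adjusted p = 0.0157), and at 48 h the difference was -0.04 (adjusted p = 0.614). A dimmer probe set of Trib3 was higher already at 12 h (0.37) as well as at 24 h (0.32).

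**Figure D3:**
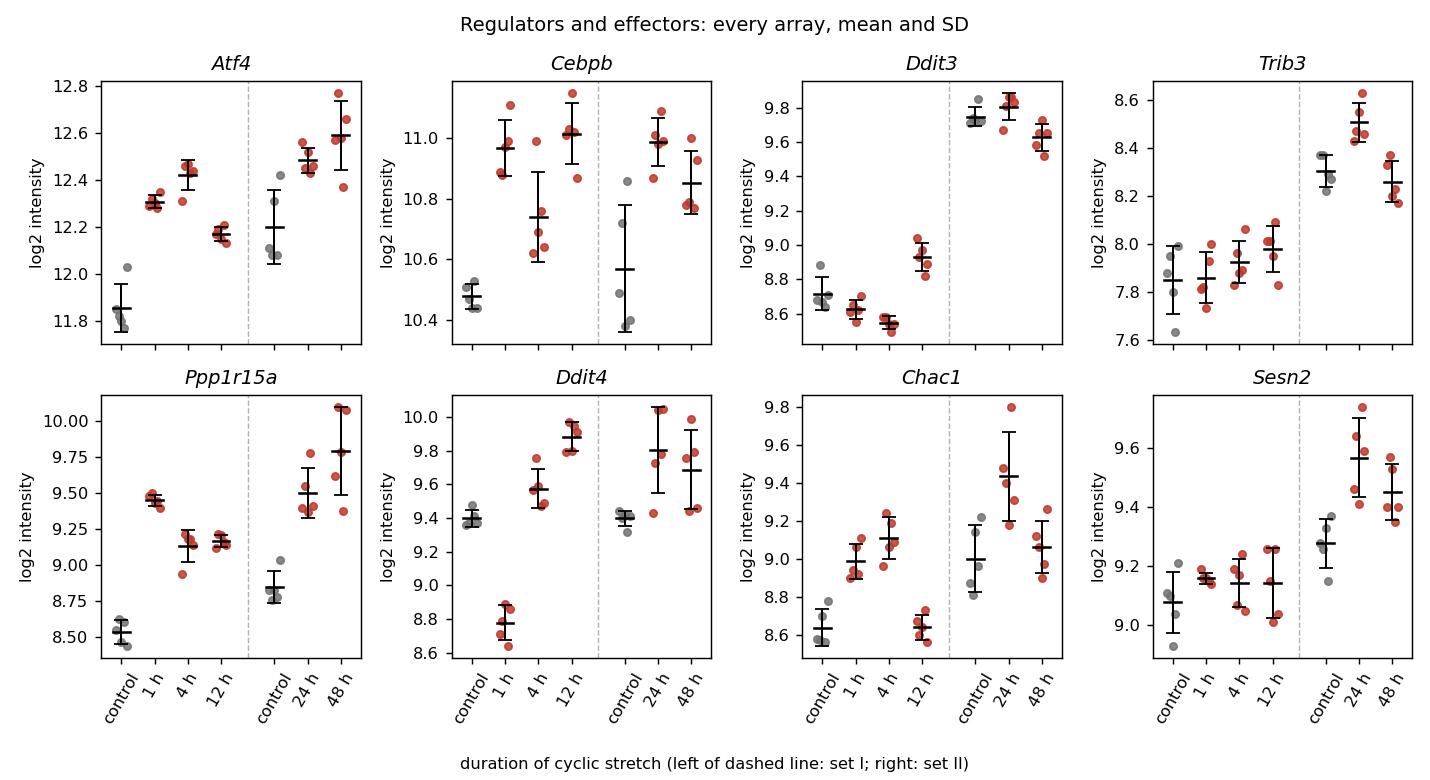
Log2 intensity (vertical axis) of 4 regulators and 4 effectors on every array (points, grey for unstretched and red for stretched myocytes) by duration of stretch (horizontal axis, set I left of the dashed line and set II right of it, each panel with its own scale), with the mean as a bar and the SD as whiskers (n = 5 per group). Atf4 and Ppp1r15a stand above their controls in set I, whereas Ddit4 falls below them at 1 h and Ddit3 at 4 h.

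Of the 6 effector and feedback genes, Ppp1r15a changed most. It encodes the subunit that directs a phosphatase to eIF2 and so reverses the translational block. Its log2 intensity in set I was 9.48, 9.5, 9.43, 9.45 and 9.40 after 1 h, 8.94, 9.22, 9.18, 9.18 and 9.14 after 4 h and 9.12, 9.22, 9.21, 9.16 and 9.14 after 12 h, against 8.55, 8.63, 8.47, 8.61 and 8.44 in unstretched myocytes. All stretched arrays were above all controls, and the 1 h arrays stood above those at 4 and 12 h. The rise was 1.88-fold at 1 h (log2 fold change 0.91, SE 0.0517, adjusted p = 5.27e-11), and the log2 fold changes were 0.59 after 4 h (adjusted p = 2.89e-08) and 0.63 after 12 h (adjusted p = 9.55e-09). It was the 1 gene of the 37 that rose by 1.5-fold or more at 1 h. Its set II values were 9.40, 9.55, 9.37, 9.78 and 9.41 after 24 h and 9.62, 10.10, 9.79, 9.38 and 10.08 after 48 h, against 8.83, 8.76, 8.83, 8.78 and 9.04 in unstretched myocytes. The stretched arrays again lay above all controls, with the widest spread of the 37 genes at 48 h (SD 0.305). The rise after 24 h was 1.57-fold (adjusted p = 0.0013), and that after 48 h 1.93-fold (log2 fold change 0.95, SE 0.122, adjusted p = 1.49e-05).

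Ddit4, which encodes an inhibitor of the growth kinase complex mTORC1, was lower at first and higher later. In set I it read 8.71, 8.79, 8.89, 8.64 and 8.86 after 1 h, 9.57, 9.76, 9.59, 9.47 and 9.49 after 4 h and 9.79, 9.97, 9.80, 9.95 and 9.91 after 12 h, against 9.36, 9.37, 9.48, 9.41 and 9.37 in unstretched myocytes. All 1 h arrays lay below and all 12 h arrays above the controls, and at 4 h the lowest array fell within the control range. It was 0.651 times its control level at 1 h (log2 fold change -0.62, SE 0.0589, adjusted p = 1.89e-07) and higher by 0.18 after 4 h (adjusted p = 0.0252) and 0.49 after 12 h (adjusted p = 1.59e-06) on the log2 scale. The small rise at 4 h was lost without control replicate 1, 2 or 5 or stretched replicate 2 (0.13 to 0.17). In set II Ddit4 read 9.43, 9.73, 10.04, 9.78 and 10.05 after 24 h and 9.76, 9.44, 9.99, 9.79 and 9.46 after 48 h, against 9.44, 9.40, 9.42, 9.32 and 9.41 in unstretched myocytes, spread widely under stretch and narrowly without it. The log2 fold changes were 0.41 after 24 h (adjusted p = 0.0208) and 0.29 after 48 h (adjusted p = 0.0664). The first was lost without stretched replicate 3 or 5 (0.35 each), and the second passed the test without stretched replicate 1 of the 24 h group or replicate 2 or 5 of the 48 h group (0.29 to 0.35).

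Chac1, which encodes an enzyme that breaks down glutathione and is a direct ATF4 target, was higher at the earlier times of each set. In set I it read 8.90, 8.94, 9.06, 8.92 and 9.11 after 1 h, 8.96, 9.24, 9.06, 9.19 and 9.09 after 4 h and 8.67, 8.60, 8.64, 8.73 and 8.56 after 12 h, against 8.58, 8.57, 8.70, 8.56 and 8.78 in unstretched myocytes. The arrays at 1 and 4 h were above all controls, and those at 12 h lay within the control range. Its log2 fold changes were 0.34 after 1 h (adjusted p = 0.000369), 0.47 after 4 h (adjusted p = 3.81e-06) and 0.00 after 12 h (adjusted p = 1). The arrays of set II gave 9.48, 9.40, 9.18, 9.80 and 9.31 after 24 h and 9.12, 9.06, 8.90, 8.97 and 9.26 after 48 h, against 8.87, 8.81, 9.14, 8.96 and 9.22 in unstretched myocytes. Control replicate 5 lay above the lowest array at 24 h, and the log2 fold changes were 0.44 after 24 h (adjusted p = 0.00968) and 0.06 after 48 h (adjusted p = 0.695). Of the other effectors, Sesn2 (a leucine sensor that restrains mTORC1) passed the test at 1 time, 0.29 after 24 h (adjusted p = 0.0067). Vldlr (a lipoprotein receptor) passed at 0.37 after 4 h (adjusted p = 0.000176), 0.21 after 12 h (adjusted p = 0.0171) and 0.22 after 48 h (adjusted p = 0.00655). Fgf21, a secreted hormone and a known ATF4 target, had the dimmest probe set of the 37 and no call at any time, with log2 fold changes between -0.06 and 0.09. The probe sets of Vldlr disagreed at 12 h, where a dimmer one was lower (log2 fold change -0.21).

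All 7 measured enzymes of amino acid and one-carbon synthesis were higher at all 5 times. Of all genes 8.24%, 17.1%, 19.4%, 13.5% and 22.5% were higher at these times. Phgdh, Psat1 and Psph act in turn in the making of serine from a glycolytic intermediate, Shmt2 and Mthfd2 pass its one-carbon unit to folate in mitochondria, Asns makes asparagine and Aldh18a1 begins the making of proline. The median log2 fold change of the 7 was 0.26, 0.60 and 0.36 over the times of set I and 0.58 and 0.66 over those of set II. Asns, the most used reporter of the amino acid response, read 10.63, 10.56, 10.52, 10.50 and 10.52 after 1 h, 10.56, 10.62, 10.64, 10.64 and 10.58 after 4 h and 10.54, 10.48, 10.51, 10.58 and 10.54 after 12 h, against 10.22, 10.35, 10.30, 10.27 and 10.30 in unstretched myocytes. The 15 stretched arrays were close together and all above the controls, with log2 fold changes of 0.26 after 1 h (adjusted p = 6.68e-05), 0.32 after 4 h (adjusted p = 1.61e-06) and 0.24 after 12 h (adjusted p = 3.39e-05). Its values in set II were 10.67, 10.88, 10.96, 10.87 and 11.01 after 24 h and 11.01, 11.02, 10.84, 10.96 and 10.96 after 48 h, against 10.22, 10.22, 10.37, 10.16 and 10.52 in unstretched myocytes. These differences, 0.58 after 24 h (adjusted p = 7.56e-05) and 0.66 after 48 h (adjusted p = 4.11e-06), were the larger of the 2 sets in value, but the sets have separate controls and their difference was not tested.

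Shmt2 was higher at every time, and within set I it was higher at 4 h than at 1 h (0.35, adjusted p = 0.000187). In set I it read 9.58, 9.67, 9.56, 9.61 and 9.66 after 1 h, 9.82, 9.93, 10.05, 9.97 and 10.07 after 4 h and 9.91, 10.03, 9.97, 10.08 and 10.11 after 12 h, against 9.26, 9.34, 9.24, 9.23 and 9.47 in unstretched myocytes. No stretched array overlapped a control, and the log2 fold changes were 0.31 after 1 h (adjusted p = 0.000582), 0.66 after 4 h (adjusted p = 1.65e-08) and 0.71 after 12 h (adjusted p = 4.3e-09). Its log2 intensity in set II was 10.12, 10.29, 10.18, 10.46 and 10.37 after 24 h and 10.42, 10.52, 10.31, 10.22 and 10.51 after 48 h, against 9.38, 9.39, 9.59, 9.25 and 9.78 in unstretched myocytes. Its rise was 1.75-fold after 24 h (log2 fold change 0.81, SE 0.096, adjusted p = 4.23e-05). After 48 h it was 1.89-fold (log2 fold change 0.92, SE 0.096, adjusted p = 1.78e-06). Mthfd2, its neighbour in the folate pathway, read 8.94, 8.96, 8.87, 8.95 and 9.10 after 1 h, 9.08, 9.31, 9.30, 9.28 and 9.44 after 4 h and 9.12, 9.18, 9.15, 9.19 and 9.04 after 12 h, against 8.56, 8.54, 8.55, 8.39 and 8.75 in unstretched myocytes. Its log2 fold change in set I was largest at 4 h. It was 0.41 after 1 h (adjusted p = 0.000158), 0.72 after 4 h (adjusted p = 4.04e-08) and 0.58 after 12 h (adjusted p = 6.06e-07). Set II gave 9.45, 9.58, 9.42, 9.87 and 9.56 after 24 h and 9.59, 9.89, 9.55, 9.38 and 9.83 after 48 h, against 8.60, 8.69, 9.09, 8.91 and 9.27 in unstretched myocytes. Control replicates 3 and 5 were again the highest, and the log2 fold changes were 0.66 after 24 h (adjusted p = 0.00176) and 0.74 after 48 h (adjusted p = 0.000284).

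Psph, which releases serine in the last step, read 8.41, 8.43, 8.35, 8.43 and 8.83 after 1 h, 8.72, 9, 8.89, 8.98 and 8.80 after 4 h and 8.85, 8.93, 8.85, 8.93 and 8.82 after 12 h, against 8.14, 8.19, 8.09, 8.13 and 8.19 in unstretched myocytes. Replicate 5 at 1 h stood far above the rest of its group, and the other groups were tight. The log2 fold changes were 0.34 after 1 h (adjusted p = 0.00247), 0.73 after 4 h (adjusted p = 1.63e-07) and 0.73 after 12 h (adjusted p = 1.31e-07). Its arrays of set II read 8.47, 8.99, 8.85, 9.30 and 8.94 after 24 h and 9.11, 9.04, 9.13, 8.89 and 9.31 after 48 h, against 8.29, 8.27, 8.29, 8.44 and 8.33 in unstretched myocytes, where replicate 1 at 24 h was close to the highest control. The log2 fold changes were 0.58 after 24 h (adjusted p = 0.00185) and 0.77 after 48 h (adjusted p = 5.51e-05). The others moved less. Over the 5 times Psat1 lay between 0.24 and 0.60, Phgdh between 0.21 and 0.55, and Aldh18a1 between 0.20 and 0.52, all passing the test at every time.

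**Figure D4:**
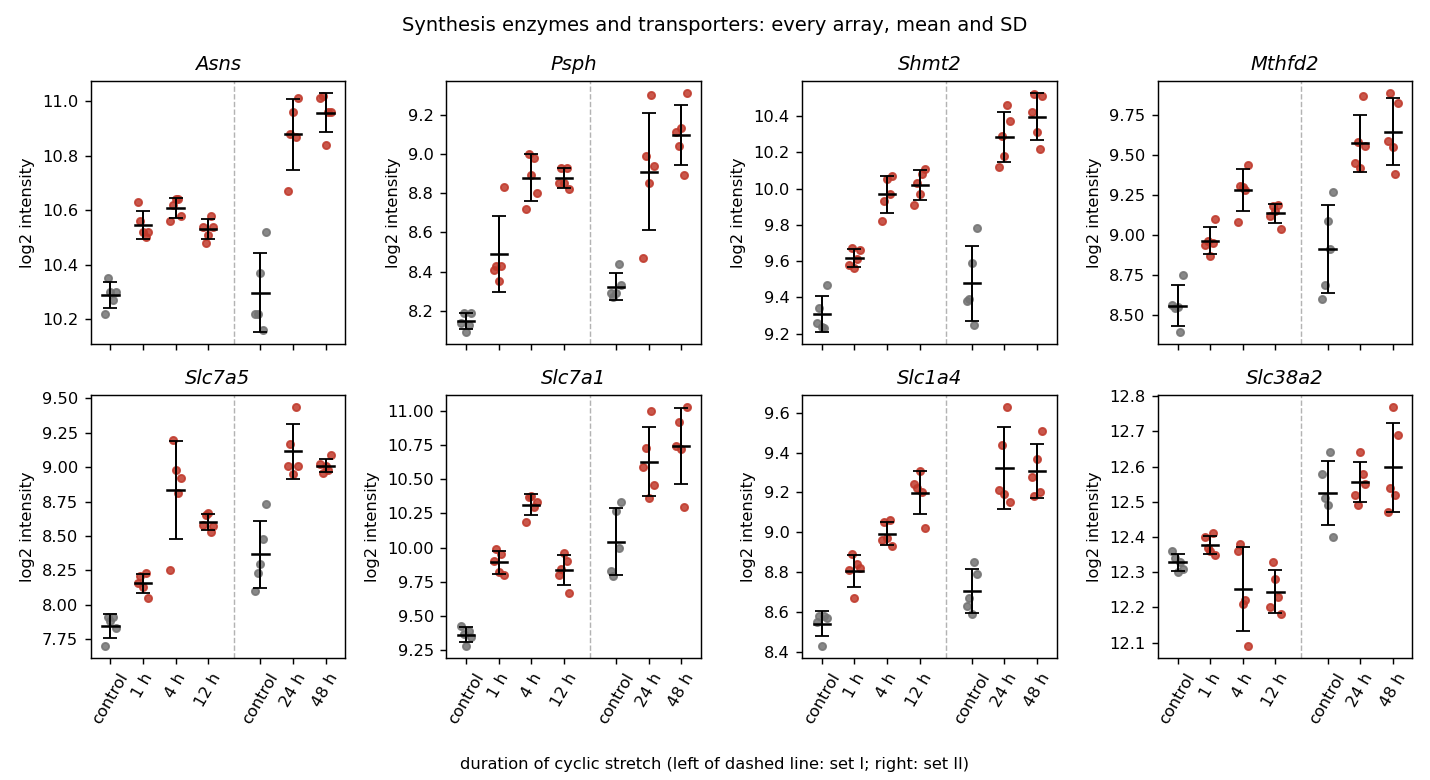
Log2 intensity (vertical axis) of 4 synthesis enzymes and 4 transporters on every array (points, grey for unstretched and red for stretched myocytes) by duration of stretch (horizontal axis, set I left of the dashed line and set II right of it, each panel with its own scale), with the mean as a bar and the SD as whiskers (n = 5 per group). The enzymes, Slc7a5 and Slc1a4 stand above their controls at every time, Slc7a1 at all but 48 h, and Slc38a2 overlaps its controls throughout.

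Among the 7 transporters 4, 5, 5, 6 and 5 were higher at 1, 4, 12, 24 and 48 h and none was lower. Of all genes 8.24%, 17.1%, 19.4%, 13.5% and 22.5% were higher and 8.3%, 19.2%, 19.7%, 10.1% and 18.4% lower. With only 7 genes, the absence of lower ones is not far from these shares. Slc7a5 is the light chain of the exchanger for large neutral amino acids such as leucine, and it works as a pair with the heavy chain Slc3a2. In set I Slc7a5 read 8.16, 8.21, 8.13, 8.23 and 8.05 after 1 h, 8.25, 9.20, 8.98, 8.81 and 8.92 after 4 h and 8.58, 8.65, 8.67, 8.53 and 8.57 after 12 h, against 7.70, 7.91, 7.88, 7.91 and 7.83 in unstretched myocytes. The groups did not overlap the controls at any time, although replicate 1 at 4 h lay far below the others and gave the group the widest spread of the 37 genes (SD 0.354). The rise at 4 h was the largest of the 37 genes at any time, 1.98-fold (log2 fold change 0.99, SE 0.11, adjusted p = 7.1e-07), and the log2 fold change at 12 h was 0.75 (adjusted p = 1.63e-05). At 1 h the difference of 0.31 did not pass (adjusted p = 0.0701), and it passed where replicate 1 or 2 of the 4 h group was left out of the shared spread. Its set II arrays read 9.01, 9.17, 8.95, 9.44 and 9.01 after 24 h and 9.02, 8.96, 9.01, 8.98 and 9.09 after 48 h, against 8.10, 8.23, 8.30, 8.48 and 8.73 in unstretched myocytes, with log2 fold changes of 0.75 after 24 h (adjusted p = 0.000176) and 0.64 after 48 h (adjusted p = 0.00019). Its partner Slc3a2 was higher at all times, by 0.24, 0.55, 0.52, 0.25 and 0.27.

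Slc7a1, the main carrier of arginine and lysine, was next in size. In set I it read 9.90, 9.99, 9.82, 9.95 and 9.80 after 1 h, 10.19, 10.37, 10.38, 10.30 and 10.33 after 4 h and 9.80, 9.84, 9.96, 9.90 and 9.67 after 12 h, against 9.43, 9.37, 9.28, 9.39 and 9.35 in unstretched myocytes. It stood highest at 4 h and nearer its controls at 1 and 12 h, without overlap, with log2 fold changes of 0.53 after 1 h (adjusted p = 8.28e-07), 0.95 after 4 h (adjusted p = 1.01e-10) and 0.47 after 12 h (adjusted p = 1.06e-06). The set II arrays gave 10.59, 10.73, 10.36, 11 and 10.46 after 24 h and 10.74, 10.92, 10.72, 10.30 and 11.03 after 48 h, against 9.83, 9.79, 10.27, 10 and 10.33 in unstretched myocytes. The stretched arrays at 24 h were above the controls and 1 of those at 48 h fell among them, and the log2 fold changes were 0.58 after 24 h (adjusted p = 0.0105) and 0.70 after 48 h (adjusted p = 0.00141). Slc1a4, an exchanger of alanine, serine and cysteine, read 8.81, 8.89, 8.67, 8.84 and 8.82 after 1 h, 8.96, 9.05, 8.97, 9.06 and 8.93 after 4 h and 9.24, 9.22, 9.31, 9.20 and 9.02 after 12 h, against 8.55, 8.58, 8.43, 8.58 and 8.57 in unstretched myocytes. In contrast to Slc7a1 its highest group of set I was that at 12 h, with log2 fold changes of 0.27 after 1 h (adjusted p = 0.00149), 0.45 after 4 h (adjusted p = 1.49e-06) and 0.66 after 12 h (adjusted p = 7.85e-09). In set II it read 9.21, 9.44, 9.19, 9.63 and 9.15 after 24 h and 9.28, 9.18, 9.37, 9.20 and 9.51 after 48 h, against 8.63, 8.67, 8.59, 8.85 and 8.79 in unstretched myocytes, with log2 fold changes of 0.62 after 24 h (adjusted p = 0.000225) and 0.60 after 48 h (adjusted p = 8.16e-05). Its relative Slc1a5, a glutamine exchanger, passed the test up to 24 h (0.24, 0.45, 0.19 and 0.26) and not at 48 h (0.14, adjusted p = 0.2). Its call at 24 h was lost when any 1 of 5 arrays was left out (0.22 to 0.26).

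Slc38a1 and Slc38a2 carry glutamine and alanine together with sodium. Slc38a2, the transporter most often used to follow amino acid shortage, passed the test at no time, with log2 fold changes of 0.05, -0.08, -0.09, 0.03 and 0.07, on a probe set brighter than those of 98.2% of genes. Slc38a1 passed the test at both times of set II, at 0.25 after 24 h (adjusted p = 0.0099) and 0.40 after 48 h (adjusted p = 9.73e-05). Other, dimmer probe sets of Slc38a1 were higher at 4 h (log2 fold changes 0.26 and 0.25), where the brightest gave 0.10 (adjusted p = 0.143).

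The 11 cytosolic tRNA synthetases, each of which loads one amino acid (Eprs1 a pair of them) onto its tRNA, had small positive log2 fold changes. At 1, 4, 12, 24 and 48 h, 7, 11, 11, 10 and 9 of the 11 were higher and none was lower. Of all genes 8.24%, 17.1%, 19.4%, 13.5% and 22.5% were higher and 8.3%, 19.2%, 19.7%, 10.1% and 18.4% lower. The median log2 fold changes of the 11 were 0.14, 0.33, 0.20, 0.25 and 0.38, and the courses of single synthetases differed. The largest at 4 h was Nars1, for asparagine, at 11.65, 11.67, 11.78, 11.68 and 11.70 on the log2 scale, against 11.04, 11.08, 11.13, 11.04 and 11.16 in unstretched myocytes, without overlap (1.52-fold, log2 fold change 0.60, SE 0.0434, adjusted p = 1.92e-09). At 48 h it was Wars1, for tryptophan, at 10.81, 10.92, 10.75, 10.66 and 10.78, against 10.23, 10.18, 10.17, 10.14 and 10.36, also without overlap (1.48-fold, log2 fold change 0.57, SE 0.063, adjusted p = 3.42e-06). Wars1 had been among the smallest in set I (0.13, 0.21 and 0.17), and its call at 1 h was lost when any 1 of 3 arrays was left out, with a log2 fold change of 0.12 in each case.

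Tars1, for threonine, whose promoter core was printed above, gave log2 fold changes of 0.19, 0.52, 0.35, 0.42 and 0.53 at the 5 times, all past the test. Iars1, for isoleucine, gave 0.21, 0.46, 0.31, 0.25 and 0.30, and Yars1, for tyrosine, 0.17, 0.49, 0.19, 0.34 and 0.39, again all past the test. Mars1 and Aars1, which carry the core as well, passed the test least often. Mars1, for methionine, passed only at 4 h (0.24) and 12 h (0.11), and Aars1, for alanine, at 4, 12 and 24 h (0.35, 0.12 and 0.19). Sars1 (serine), Lars1 (leucine) and Gars1 (glycine) had log2 fold changes of 0.44, 0.28 and 0.38 at 48 h. These were their largest in value, but the sets have separate controls. None of the 11 synthetases passed the test at 48 h against 24 h. Eprs1, for glutamate and proline, had a log2 fold change between 0.15 and 0.33 by its brightest probe set, but a dim and noisy one gave -0.58 at 24 h and -0.51 at 48 h without passing the test. Several small calls of the synthetases lay near the threshold. Leaving out 1 array ended the call of Eprs1 or Gars1 at 1 h in 6 cases each, of Mars1 at 12 h in 7, of Aars1 at 12 h in 2 and at 24 h in 7, and of Nars1 at 24 h in 3. In those cases the log2 fold changes were 0.14 to 0.15 for Eprs1, 0.12 to 0.14 for Gars1, 0.09 to 0.11 for Mars1, 0.11 and 0.16 to 0.20 for Aars1 and 0.21 to 0.23 for Nars1.

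Neighbouring times within a set were compared directly, to ask when the levels moved. At 4 h against 1 h, 21 of the 37 genes were higher and 2 lower, against 8.64% and 8.89% of all genes. The largest differences were those of Ddit4 (log2 difference 0.80, adjusted p = 1.14e-08), Slc7a5 (0.68, adjusted p = 0.000256) and Slc7a1 (0.42, adjusted p = 2.4e-05). Among the 21 were 9 of the 11 synthetases. The 2 that were lower at 4 h than at 1 h were Ppp1r15a (-0.32) and Cebpb (-0.23). At 12 h against 4 h, 13 were lower and 4 higher, against 6.22% and 5.85% of all genes. Lower at 12 h were Atf4 (-0.25, adjusted p = 0.00108), Slc7a1 (-0.48), Chac1 (-0.47), Psat1 (-0.26) and 5 synthetases. Higher were Ddit3 (0.38), Ddit4 (0.31), Cebpb (0.28) and Slc1a4 (0.20). At 48 h against 24 h no gene was higher and Trib3 alone was lower (-0.25, adjusted p = 0.0129), against 2.97% and 5.73% of all genes.

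Other genes of the same machinery were counted from lists. Of 11 further cytosolic synthetases and scaffold proteins of their complex, 5, 10, 10, 9 and 9 were higher at the 5 times and none was lower. Cars1, the synthetase for cysteine, had log2 fold changes of 0.26, 0.67, 0.24, 0.36 and 0.35, and Hars1, for histidine, reached 0.60 at 48 h (adjusted p = 2.02e-05). Of 13 mitochondrial synthetases, which are separate genes, 0, 2, 2, 1 and 1 were higher and 1, 1, 3, 0 and 3 lower. Among all genes 8.24%, 17.1%, 19.4%, 13.5% and 22.5% were higher and 8.30%, 19.2%, 19.7%, 10.1% and 18.4% lower, so that the 5 calls at 12 h, for example, were a share near that of all genes. Nars2 was at -0.72 at 1 h (adjusted p = 3.39e-05) and Yars2 at 0.62 at 48 h (adjusted p = 5.27e-05). The difference between the lists was not tested.

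**Figure D5:**
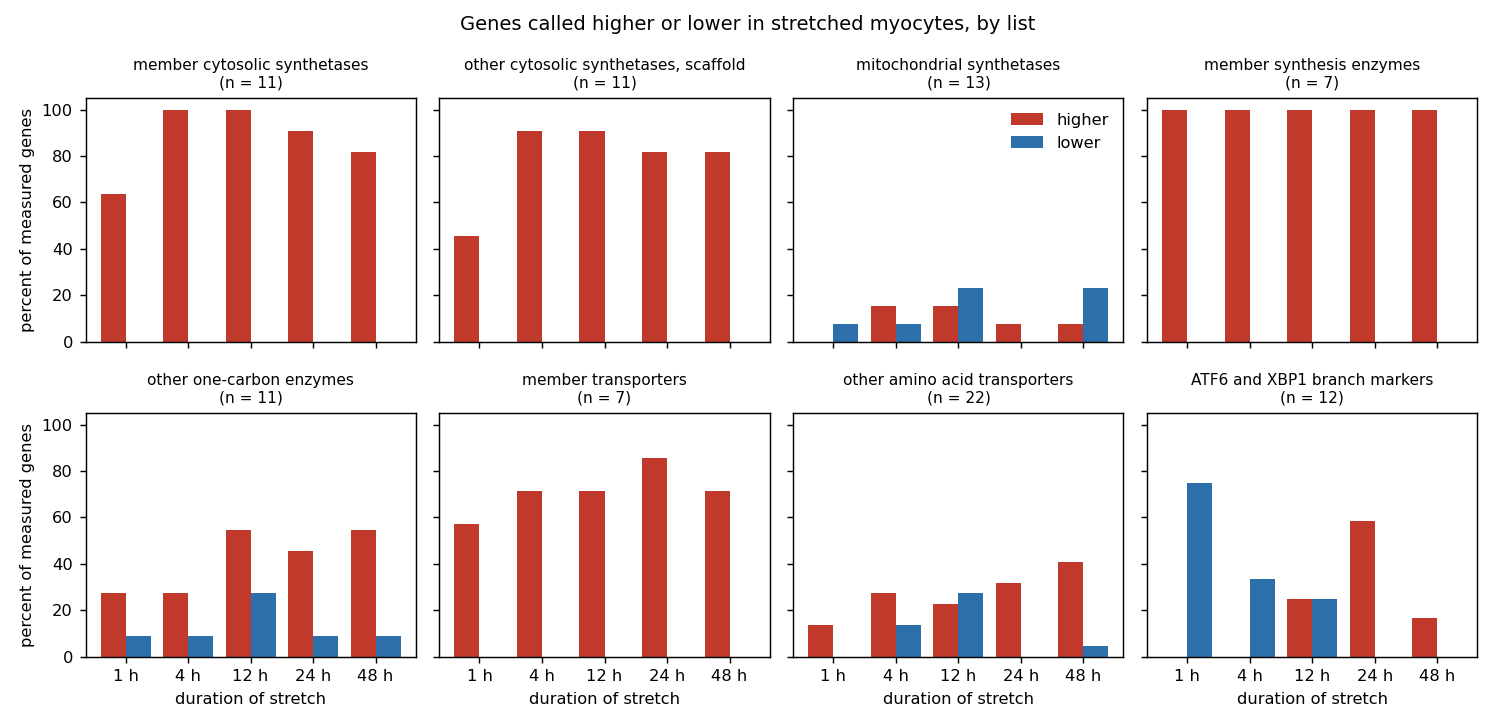
Percent of the measured genes of a list (vertical axis) that were higher (red) or lower (blue) in stretched myocytes at an adjusted p under 0.05, at each duration of stretch (horizontal axis). The 3 lists of genes described here and the other cytosolic synthetases carry red bars alone, the mitochondrial synthetases have bars of both colours, with 2 of 13 higher and 3 of 13 lower at 12 h, and the ATF6 and XBP1 branch markers have 9 of 12 lower at 1 h and 7 of 12 higher at 24 h.

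Other amino acid transporters were mixed as a list, with 3, 6, 5, 7 and 9 of 22 higher and 0, 3, 6, 0 and 1 lower. Of all genes 8.24%, 17.1%, 19.4%, 13.5% and 22.5% were higher and 8.3%, 19.2%, 19.7%, 10.1% and 18.4% lower. The calls of the transporters at 12 h, for example, were not far from these shares. The list held larger single changes than any of the 37 genes. Slc7a11, the cystine carrier that supplies glutathione synthesis and is also driven by Nrf2, had log2 fold changes of 0.50, 1.51, 2.78, 1.32 and 1.30. Slc7a3, another carrier of cationic amino acids, was higher at all times (0.51 to 1.22). The taurine carrier Slc6a6 reached 1.34 at 48 h, and Slc38a4 was at 1.06 and 1.27 at 24 and 48 h after no call in set I. Among 20 other reported ATF4 targets, which include Slc7a11 and Nars2, 6, 13, 11, 10 and 11 were higher and 2, 0, 3, 1 and 2 lower. Atf3, a stress factor of the same family, was at 3.11 at 1 h (adjusted p = 1.48e-17), and Gdf15, a stress hormone, was between 0.93 and 2.17 over the 5 times. Bcat1, which transfers the amino group of leucine, isoleucine and valine, reached 1.56 at 48 h (adjusted p = 4.55e-08).

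Upstream, of 17 genes for eIF2 kinases and the eIF2 cycle 3, 7, 10, 6 and 6 were higher and 0, 2, 1, 1 and 1 lower. The shares of all genes were 8.24%, 17.1%, 19.4%, 13.5% and 22.5% higher and 8.3%, 19.2%, 19.7%, 10.1% and 18.4% lower. Ppp1r15b, the constant counterpart of Ppp1r15a, passed the test at the 3 times of set I (0.34, 0.47 and 0.25). Eif2b3, a subunit of the exchange factor for eIF2, reached 0.73 at 48 h, and the kinase Eif2ak2 was lower, with a log2 fold change of -0.63 at 48 h (adjusted p = 3.01e-05). The kinase Eif2ak4 was lower at 4 h (-0.19) and 12 h (-0.16), and the kinases Eif2ak1 and Eif2ak3 had no call against the controls. Phosphorylation of eIF2 was not measured by the arrays. Of 11 other one-carbon enzymes 3, 3, 6, 5 and 6 were higher and 1, 1, 3, 1 and 1 lower, and Mthfd1l, which follows Mthfd2 in mitochondria, gave 0.24, 0.57, 0.53, 0.70 and 1.1, passing the test from 4 h on.

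Of 11 measured relatives of the genes, 3, 3, 4, 3 and 4 were higher at the 5 times and 4, 4, 4, 1 and 2 lower. The shares of all genes were 8.24%, 17.1%, 19.4%, 13.5% and 22.5% higher and 8.3%, 19.2%, 19.7%, 10.1% and 18.4% lower. The 2 relatives lower at 48 h, for example, were a share near that of all genes. Cebpa, a C/EBP factor close to Cebpb, was higher at all 5 times (0.27, 0.65, 0.78, 0.44 and 0.41). Cebpd, another C/EBP factor, was lower at 1, 4 and 12 h (-0.49, -0.55 and -0.53), with no call in set II. Sesn1, the sestrin next to Sesn2, was lower at all 5 times (-0.51, -0.68, -0.36, -0.51 and -0.96, the last with adjusted p = 2.28e-06). The sestrin Sesn3 was higher at 12, 24 and 48 h (0.71, 0.41 and 0.44), with no call at 1 and 4 h. Ddit4l, the closest relative of Ddit4, was lower at 1, 4 and 48 h (-0.33, -0.24 and -0.38) and higher at 12 h (0.76), and Lrp8, a receptor close to Vldlr, reached 1.02 at 48 h (adjusted p = 9.35e-07). The ATF6 and XBP1 branches of the response to unfolded protein were followed by 12 chaperone and folding genes, of which 0, 0, 3, 7 and 2 were higher and 9, 4, 3, 0 and 0 lower. Sdf2l1 had log2 fold changes of -0.39, -0.38 and -0.34 in set I and 0.64 at 24 h (adjusted p = 0.0026).

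Within a group, the 37 genes shared part of their variation between arrays. Stretched replicate 4 at 24 h was the highest of its group for 26 of the 37 genes and replicate 4 at 48 h the lowest for 21. In set I, stretched replicate 1 at 4 h was the lowest of its group for 23 genes and replicate 5 at 12 h for 22. Of the controls of set II, replicate 5 was the highest for 23, with a median deviation of the 37 genes from the group mean of 0.098, while that of all genes was 0.013. The deviations of pairs of genes correlated with a median r of 0.25 over the 20 arrays of set I and 0.42 over the 15 of set II (666 pairs each, arrays shared by all pairs, given as a description). No correlation of all genes or of equally bright genes is set beside these, so variation particular to the 37 genes is not shown. Leaving out stretched replicate 4 gave 28 higher genes at 24 h and 28 at 48 h. Leaving out control replicate 5 gave 30 and 25, and leaving out stretched replicate 1 at 4 h gave 30 at 4 h. The SD between replicates was small beside most of the changes, with a median over the 37 genes of 0.055 to 0.076 in the groups of set I and 0.103 to 0.104 in those of set II.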

How the data were processed

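Total RNA of 35 cultures of neonatal rat ventricular myocytes (7 groups of 5 biological replicates) was hybridised to Affymetrix rat genome arrays. The authors applied the RMA method of GeneSpring GX, and the deposited values are intensity on a linear scale, taken to log2 here. A spreadsheet had changed 471 values in 427 probe sets into dates, and these were restored; none belongs to a gene described here. After 57 array controls were left out, 31042 probe sets remained. The annotation names 1 gene for 20826 of the 31042 probe sets, several for 436 and none for 9780. In limma 3.58.1 (R 4.3.3), 1 mean per group was fitted within each set, with moderated variances, and Benjamini-Hochberg adjustment covered the 31042 probe sets of a comparison. A gene was called at an adjusted p under 0.05. On the log2 scale the residual SD had a median of 0.114 in set I (16 degrees of freedom) and 0.12 in set II (12), so precision is limited by the number of arrays. The control labels (suffix a or b) do not name a set. They were read as the controls of set I and of set II by the levels of the arrays. The methods state only that each set had its own control.

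The genes and lists were chosen with earlier results of these data known. Values of every array are given for the called genes with the largest changes (up to 5 per time), for Atf4, Ddit3, Asns, Trib3 and Chac1, and for called genes that went against their role group; for Nars1 and Wars1 they were added after their values were seen. Of each other list up to 4 genes are named, those with the largest called changes, without genes under the 25th percentile of brightness. Eif2ak1, Eif2ak3, Eif2ak4, Cebpd and Sesn3 were added to these after their values were seen. The fit was tested on simulated data. Alternatives were the methods' one-way analysis, other scalings, probe set choices, filters, weights, the replicate number as a block, and leaving out each array. Promoter sequences are from RefSeq, build GRCr8. Tables were handled in Python 3.11.15 with pandas 2.3.3 and numpy 2.4.6, and figures drawn with matplotlib 3.10.9.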

Additional observations from a re-analysis of the deposited data

Results flagged for a closer look

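In 15 of the 259 combinations of gene and group (5.79%), 1 array stood apart from the other 4 of its group (Dixon's ratio above 0.71), which chance alone gives in about 1 of 20. In stretched myocytes the array stood above the others for Yars1 in replicate 2 of the 1 h group (10.69, next 10.61), Psph in replicate 5 of the 1 h group (8.83, next 8.43), Eprs1 in replicate 2 of the 4 h group (11.25, next 11.05) and Tars1 in replicate 4 of the 24 h group (10.53, next 10.30), and below them for Tars1 in replicate 1 of the 4 h group (10.21, next 10.35), Atf4 in replicate 1 of the 4 h group (12.31, next 12.43), Ppp1r15a in replicate 1 of the 4 h group (8.94, next 9.14), Slc3a2 in replicate 1 of the 4 h group (10.92, next 11.12), Mars1 in replicate 5 of the 12 h group (10.32, next 10.42) and Ddit3 in replicate 1 of the 24 h group (9.67, next 9.81). In unstretched myocytes it stood above for Atf4 in replicate 5 of the unstretched, set I group (12.03, next 11.85), Ddit3 in replicate 4 of the unstretched, set II group (9.85, next 9.74) and Ppp1r15a in replicate 5 of the unstretched, set II group (9.04, next 8.83), and below for Slc1a4 in replicate 3 of the unstretched, set I group (8.43, next 8.55) and Atf5 in replicate 3 of the unstretched, set II group (10.26, next 10.51). All values are log2 intensities. Replicate 1 at 4 h holds 4 of the 15, all low (Atf4, Ppp1r15a, Slc3a2 and Tars1).

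Stretch effects that differed between neighbouring times of a set are those for which the times themselves differed (limma, adjusted p under 0.05), since both are set against the same controls. At 4 h against 1 h the log2 difference was positive for Ddit4 (0.80), Slc7a5 (0.68), Slc7a1 (0.42), Psph (0.39), Psat1 (0.36), Nars1 (0.35), Shmt2 (0.35), Tars1 (0.33), Yars1 (0.32), Slc3a2 (0.32), Mthfd2 (0.31), Vldlr (0.28), Aldh18a1 (0.26), Iars1 (0.25), Aars1 (0.23), Sars1 (0.21), Slc1a5 (0.20), Slc1a4 (0.19), Gars1 (0.18), Mars1 (0.17) and Eprs1 (0.17), and negative for Ppp1r15a (-0.32) and Cebpb (-0.23). At 12 h against 4 h it was negative for Slc7a1 (-0.48), Chac1 (-0.47), Yars1 (-0.30), Psat1 (-0.26), Slc1a5 (-0.26), Atf4 (-0.25), Aldh18a1 (-0.24), Aars1 (-0.23), Cebpg (-0.22), Slc38a1 (-0.21), Tars1 (-0.17), Iars1 (-0.15) and Mars1 (-0.13), and positive for Ddit3 (0.38), Ddit4 (0.31), Cebpb (0.28) and Slc1a4 (0.20). At 48 h against 24 h it was negative for Trib3 (-0.25). Ddit4 is the gene whose calls lie on both sides of the controls with 1 h lower and 4, 12 and 24 h higher, and Ddit3 was lower at 4 h and higher at 12 h.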

How the results depend on the processing

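The counts of higher genes at the 5 times stayed within 1.5 times of those reported under every alternative run, and the 37 genes at 5 times kept their direction and their side of the threshold in 167 to 185 of up to 185 results per alternative. The choice of probe set mattered most. With the most variable probe set of a gene, Eprs1 was at -0.01 (1 h), -0.58 (24 h) and -0.51 (48 h) and Cebpg at 0.35 (12 h), and with the mean of all probe sets Eprs1 was at -0.04 (24 h) and -0.01 (48 h) and Cebpg at 0.16 (12 h), all opposite in sign to the values reported. Small counts moved. Lower genes at 12 h were 1 in place of 0 under the methods' one-way analysis, quantile normalization, the brightness filter and array weights. Of 4 h against 1 h, 1 gene was lower in place of 2, and of 12 h against 4 h, 2 were higher in place of 4, under the one-way analysis and in limma on the 2 groups alone. Of 48 h against 24 h, 1 gene was higher in place of 0 under the brightness filter and the mean of probe sets, and lower genes were 0 with the most variable probe set, 2 under quantile normalization and array weights, and 3 under the filter, the mean of probe sets and trended moderation. Leaving out 1 array gave 1 to 3 lower genes at 4 h against 1 h, 0 to 2 higher and 1 to 2 lower genes at 48 h against 24 h, and 19 to 24, 29 to 30, 27 to 29, 25 to 30 and 24 to 28 higher genes at 1, 4, 12, 24 and 48 h.

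Same-numbered replicates did not deviate together over all groups (median correlation of deviations -0.003 in set I and -0.041 in set II). The arrays at 24 h and their controls came closest, with correlations of 0.161, 0.174, 0.539, 0.521 and 0.035 for the 5 numbers, but in no pair of groups did all 5 pass 0.1, so the numbers were not taken as a pairing. The replicate number as a block gave 23, 30, 28, 29 and 25 higher genes at the 5 times. It ended the calls of Mars1 at 12 h (0.11), Aars1 at 24 h (0.19) and Cebpg at 48 h (0.15), and brought Slc7a5 at 1 h (0.31) past the threshold. The causes of these shifts were not tested, other than that fewer groups in a fit leave fewer arrays to estimate the spread.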
